A study of Mus musculus with 13 samples.

Results

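Nuclear receptors are transcription factors that bind DNA directly, many of them only or mainly after a small fat-soluble hormone enters the cell. The genes described here are 7 of the 55487 in the deposited tables: the steroid receptors Nr3c1 (glucocorticoid receptor), Esr1 (estrogen receptor alpha) and Pgr (progesterone receptor), the vitamin D receptor Vdr, the orphan receptors Nr2f1 and Nr2f2 (COUP-TFI and COUP-TFII), and Nrip1, a corepressor that binds hormone-loaded receptors. They were chosen by symbol and all 7 were found in both tables. Steroid receptors rest in chaperone complexes until hormone binds, Vdr acts as a partner of retinoid X receptors, and the COUP-TF proteins are known in embryonic mesenchyme as regulators of patterning and of vessel and limb development. Embryonic fibroblasts are well known to respond to glucocorticoids, while Pgr is a classical gene induced through Esr1 in reproductive tissue.

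The libraries came from mouse embryonic fibroblasts (MEFs) sampled as primary cultures and again as lines that had immortalized spontaneously after serial passage through senescence. Of the 13 poly-A RNA-seq libraries, 6 were WT (3 primary, clones 3, 4 and 5, and 3 immortalized lines of the same numbers) and 7 were labelled Prkd3-/- (3 primary, clones 13, 14 and 15, and 4 immortalized lines, 13, 13a, 14 and 15). Lines 13 and 13a carry the same clone number, and no strain or age is given in the labels. Cultures were moved to a richer share of fetal calf serum while senescent, and per the study's account of the WT lines they returned to the starting share after immortalization. Time in culture differed with state and cannot be told apart from it. In the study a WT number marks 1 embryo before and after immortalization, and the Prkd3-/- clone numbers were read likewise. Each line grew out of colonies of surviving cells.

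Total counts ranged from 35273408 to 100441756 per library, and 3 counts in a library corresponded to between 0.0299 and 0.0851 CPM (the share of a library's counts, scaled to a common total). Levels are CPM scaled over all 13 libraries by TMM, edgeR's correction for library composition. Prkd3 itself was at 69.2 to 93.7 CPM in the WT libraries and at 33.6 to 61.0 CPM in those labelled Prkd3-/-; gene counts cannot show the loss of single exons, so the genotype is used as a label. All 10 fibroblast markers were detected in every group. The summed level of 10 macrophage markers was 682 to 711 CPM in WT primary and 34.0 to 99.97 CPM in WT immortalized libraries, and 93.1 to 1028 CPM in Prkd3-/- primary and 10.2 to 177 CPM in Prkd3-/- immortalized libraries. Although labelled as 1 clone, each WT primary library held both Xist (43.9 to 55.9 CPM) and the Y-linked Ddx3y (51.6 to 63.7 CPM). Among the WT lines Xist was at 56.0 to 170 CPM, while Ddx3y ranged from 0.209 to 65.1 CPM. Whether each WT primary library came from 1 embryo was not tested. The embryo block and the SDs of WT primary libraries follow the study's numbering and may not describe separate embryos. The same holds for comparisons of a WT line with its own primary culture. The 2 genotypes were counted in separate tables, and between them Hspa8 (142 to 170 CPM in WT, 544 to 994 CPM in Prkd3-/-) and Ncoa4 (4.24 to 5.55 and 12.96 to 16.2 CPM) differed without overlap in every state. The genotypes also differed in these markers of sex. In all libraries labelled Prkd3-/-, Xist was at 0.156 CPM or less and Ddx3y at 47.4 to 154 CPM. Differences of level between genotypes therefore cannot be told apart from how each table was made or from the sex of the cells. States were compared within genotype.

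The promoter of Pgr is shown because this gene had the smallest adjusted p-value of the 7 in WT cells, and that of Vdr because its level had the widest range among the Prkd3-/- lines of the 6 genes detected in all of them. Each is the 250 bases before a transcription start in RefSeq's annotation of GRCm38.p6, written 5′ to 3′ on the gene's strand, with CpG dinucleotides in capitals. The windows are chr9:8899583-8899832 on the plus strand for Pgr and chr15:97908297-97908546 on the minus strand for Vdr.
Pgr: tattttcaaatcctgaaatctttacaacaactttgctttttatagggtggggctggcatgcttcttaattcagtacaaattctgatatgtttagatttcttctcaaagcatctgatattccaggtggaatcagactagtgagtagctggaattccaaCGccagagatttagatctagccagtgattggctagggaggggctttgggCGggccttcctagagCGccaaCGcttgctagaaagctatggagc
Vdr: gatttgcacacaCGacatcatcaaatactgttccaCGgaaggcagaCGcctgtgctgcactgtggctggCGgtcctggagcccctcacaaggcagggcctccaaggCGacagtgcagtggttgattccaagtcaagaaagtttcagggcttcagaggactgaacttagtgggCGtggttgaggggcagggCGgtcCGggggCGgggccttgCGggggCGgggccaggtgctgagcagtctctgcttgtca
The Pgr window held 4 CpG and 43.6% G or C and the Vdr window 11 CpG and 61.2% G or C, against medians of 6 CpG and 52.4% over the 32841 windows of the table. For Nr2f1 the windows before its 2 listed starts held 22 and 2 CpG, and the former lies inside an exon of the longer Ensembl gene model. The Vdr window also lies within the span of its Ensembl gene model, which begins upstream at 97910630. The same holds for both Esr1 windows and the Nrip1 window from 76373050. The letters AGGTCA or TGACCT, the core of the sites bound by Esr1, Vdr and COUP-TF proteins, and the letters AGAACA or TGTTCT, the core of sites bound by Nr3c1 and Pgr, were searched on both strands. Neither was found in the 9 windows of the 6 genes that the table holds, and they occurred in 14% and 16.1% of all windows. Nr3c1 has no entry in the table.

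Per kilobase of exon, the scale on which genes can be compared, Nr3c1 had the highest mean level and Pgr the lowest in all 4 groups. In WT primary MEFs the order ran Nr3c1 (15.6 ± 0.419 CPM per kb, mean ± SD, n = 3), Nr2f2 (8.49 ± 0.411), Nrip1 (3.37 ± 0.183), Nr2f1 (2.92 ± 0.154), Vdr (0.766 ± 0.124), Esr1 (0.162 ± 0.0184) and Pgr (0.0846 ± 0.00763). No neighbours in this order overlapped in WT primary libraries. In the WT lines Nr3c1, Nr2f2, Nr2f1 and Nrip1 overlapped along the order, and in the Prkd3-/- lines Vdr overlapped with Nr2f1 above it and Nrip1 below it. Vdr, Esr1 and Pgr were the 3 lowest in both primary groups and in the WT lines.

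**Figure D1:**
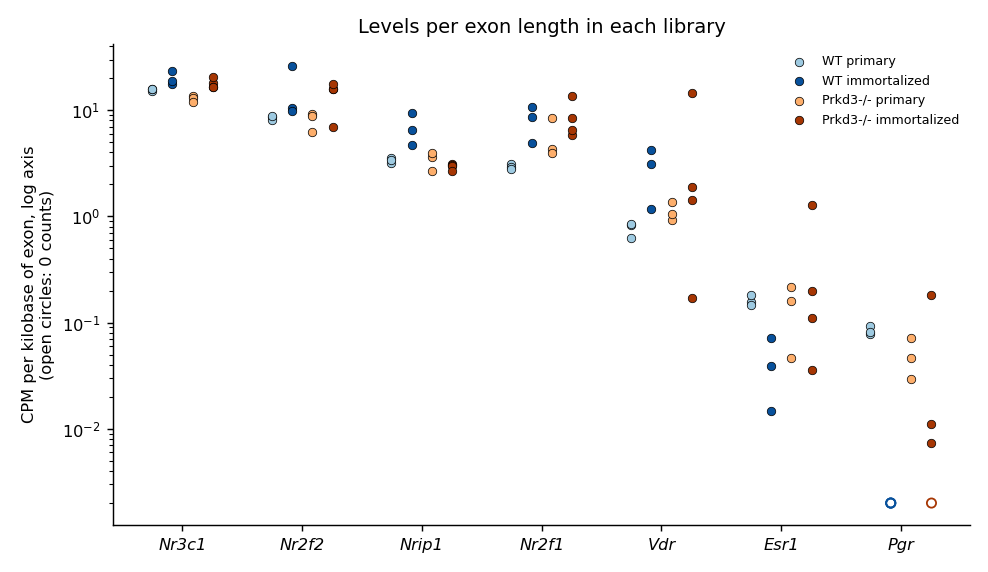
Level of each gene per kilobase of exon (CPM per kb, log axis) in each of the 13 libraries, with genes ordered as in WT primary MEFs and open circles for libraries with 0 counts. Nr3c1 has the highest group means with little spread, although Nr2f2 lies above it in WT line 3 (26.2 against 17.7 CPM per kb). Vdr, Esr1 and Pgr are mostly low and scatter most among the immortalized lines. Vdr reaches 14.6 CPM per kb in Prkd3-/- line 14.

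In WT cells, Pgr fell below detection in all 3 lines, Esr1 was lower in all 3, and the other 5 genes were higher in all 3. Of the 7 genes, 1 passed the thresholds used here (an absolute log2 fold change of at least 1 with an adjusted p under 0.01 by quasi-likelihood testing in edgeR), namely Pgr, among 361 of the 19836 genes tested, or 1.82% (1.76% in the same direction). With the embryo as a block no gene was called in WT (0 of 19836), and DESeq2 called 5 of the 7 (Esr1, Pgr, Vdr, Nr2f1 and Nrip1) where it called 5.94% of all genes. At an edgeR adjusted p under 0.05 alone, Nr2f1 was higher, as 0.696% of tested genes were, and Pgr lower, as 4.57% were. Every line lay above every primary library for 5 of the 7 genes and below for 2, where 13.9% of all tested genes lay above and 17.4% below. The median log2 fold change of the 7 was 0.87, with Pgr at its fitted value or at its bound, and that of all tested genes was 0.04. Esr1, Vdr, Nr2f1 and Nrip1 are among the genes that the study names from the same WT libraries, so their direction here is no separate evidence. In Prkd3-/- cells no gene passed, of the 7 or of all 20298 tested (0%), with 1331 genes (6.56%) at an unadjusted p under 0.05 in edgeR, 2 of them (Nr3c1 and Nr2f2) among the 7. DESeq2 made 190 calls (0.781%), 0 of them among the 7. Every Prkd3-/- line lay above every Prkd3-/- primary library for 1 of the 7 genes, Nr3c1, as for 4.19% of all tested genes.

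**Figure D2:**
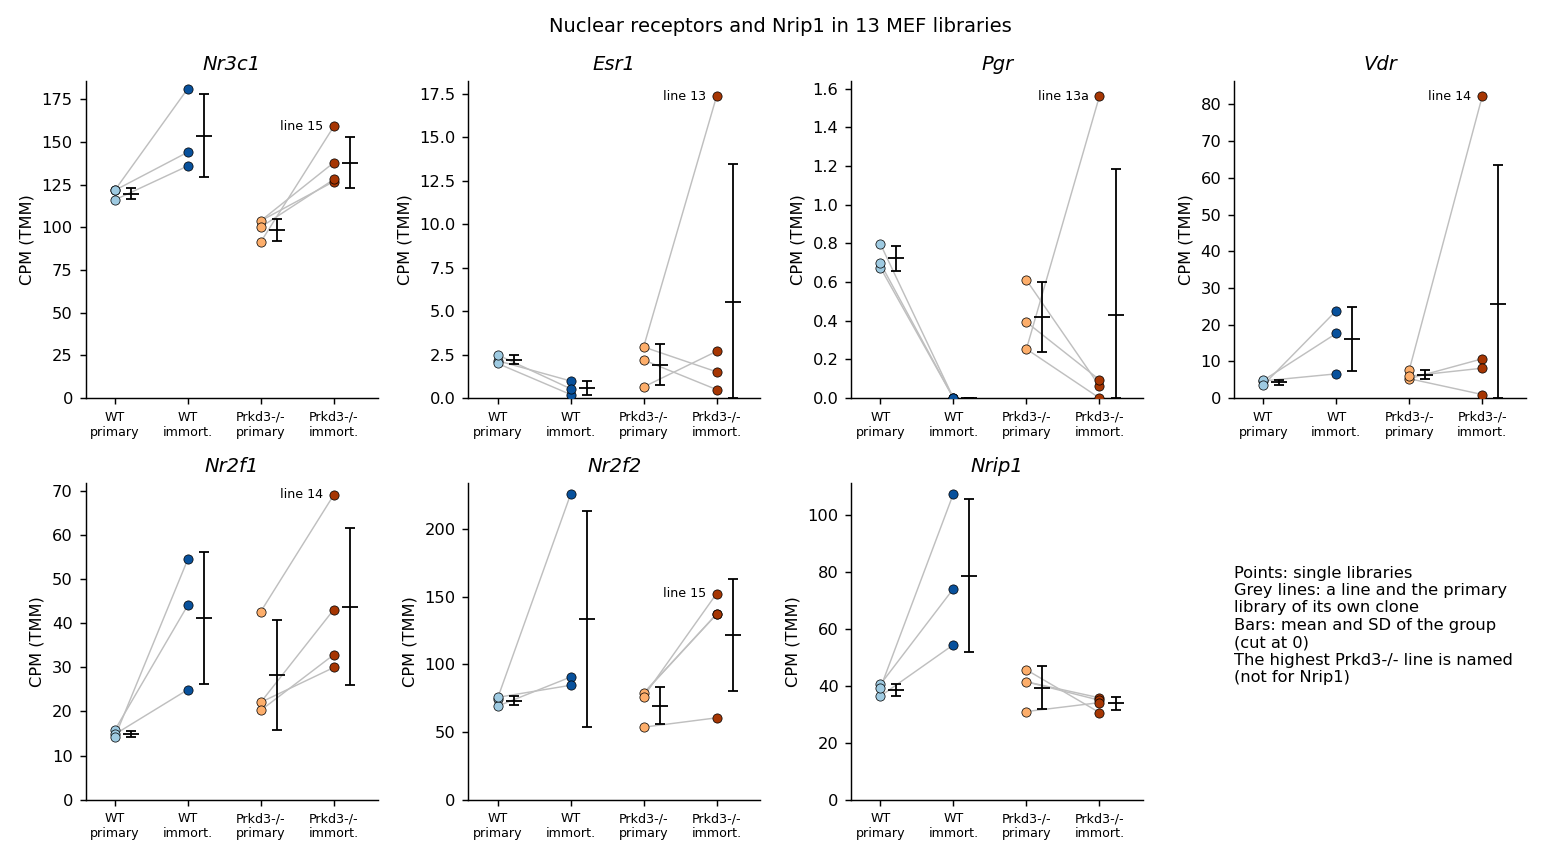
CPM (TMM) of each of the 7 genes in every library, by genotype and state, with grey lines joining each line to the primary library of its own clone and bars for mean and SD. Primary WT libraries lie close together, Pgr is at 0 in all 3 WT lines, and single Prkd3-/- lines stand far above the others for Esr1 (line 13, 17.4 CPM), Pgr (line 13a, 1.56 CPM) and Vdr (line 14, 82.3 CPM).

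Nr3c1 encodes the receptor for cortisol and corticosterone and lies on the minus strand of chromosome 18 from 39410545 to 39519421 (GRCm38). Its level was 116, 122 and 122 CPM in WT primary clones 3, 4 and 5 and 136, 144 and 181 CPM in the lines of the same numbers. In Prkd3-/- cells it was 104, 100.2 and 91.5 CPM in primary clones 13, 14 and 15, and 138, 127, 128 and 159 CPM in lines 13, 13a, 14 and 15. Every line was above every primary library within its genotype, and each of the 7 lines was above the primary library of its own clone, by 1.17-fold to 1.74-fold. The log2 fold change was 0.36 ± 0.13 (SE) in WT (edgeR adjusted p = 0.209) and 0.47 ± 0.16 in Prkd3-/- (edgeR adjusted p = 0.669). Over both genotypes it was 0.43 ± 0.10 (edgeR adjusted p = 0.0316, DESeq2 adjusted p = 0.000431, and 0.132 with the embryo as a block), under the fold threshold. At an adjusted p under 0.05 alone, 0.453% of tested genes were higher over both genotypes. Nr3c1 was the only one of the 7 genes in which all lines lay above all primary libraries in both genotypes, as 1.35% of the 21197 genes tested did.

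Among genes that glucocorticoids are known to induce no call was made. Of 19 on the list, 17 were tested in WT and 16 in Prkd3-/- and none was called in either, with median log2 fold changes of 0.35 and 0.12 (0.04 and 0.07 over all tested genes). Tsc22d3 (GILZ), a leucine zipper gene induced by glucocorticoids, was at 23.0, 22.8 and 24.8 CPM in WT primary and 30.3, 40.0 and 30.7 CPM in WT lines, without overlap (log2 fold change 0.52 ± 0.13, edgeR adjusted p = 0.103). In Prkd3-/- lines it ranged from 10.8 CPM in line 13 to 38.1 CPM in line 14. Fkbp5, a chaperone that dampens the receptor, ranged from 9.07 CPM in line 14 to 66.4 CPM in line 13, and its state groups overlapped in both genotypes. The clock gene Per1 ranged from 19.0 to 48.3 CPM over the 13 libraries, and its log2 fold change was 0.35 in WT and −0.26 in Prkd3-/-. Zbtb16, named after its values were seen as the single gene of this list with an edgeR adjusted p under 0.05 in WT, was at 0.283 to 0.445 CPM in WT primary and at 0 to 0.0169 CPM in WT lines. Hsd11b1, the enzyme that regenerates active glucocorticoid inside cells, was between 0.028 and 0.196 CPM in the primary libraries and highest in line 13a (3.47 CPM) and WT line 5 (0.945 CPM).

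Esr1 spans chromosome 10 from 4611593 to 5005614 on the plus strand and encodes estrogen receptor alpha. It was at 2.15, 1.99 and 2.49 CPM in WT primary clones 3, 4 and 5 and at 0.983, 0.203 and 0.534 CPM in the WT lines, which were lower than their own primary cultures by 2.18-fold, 9.81-fold and 4.66-fold. All WT lines lay below all WT primary libraries. The log2 fold change of −1.94 ± 0.55 did not pass (edgeR adjusted p = 0.128), whereas DESeq2 called it (adjusted p = 0.00468). In Prkd3-/- cells the primary libraries of clones 13, 14 and 15 held 2.94, 0.638 and 2.19 CPM and lines 13, 13a, 14 and 15 held 17.4, 1.51, 2.69 and 0.486 CPM. Lines 13 and 14 were above their own primary cultures and lines 13a and 15 below, so the groups overlapped (log2 fold change 1.49 ± 1.19, edgeR adjusted p = 0.855). Without line 13 the log2 fold change was −0.30.

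Pgr lies on chromosome 9 from 8899833 to 8968611 on the plus strand and had the lowest mean of the 7 genes in every group. In Prkd3-/- line 13a it was above Esr1 (1.56 against 1.51 CPM). WT primary clones 3, 4 and 5 held 0.797, 0.675 and 0.697 CPM, from 153 counts in all, and the 3 WT lines held 0 counts. With a floor of 3 counts per library, Pgr was at least 14.2-fold lower in the WT lines (edgeR adjusted p = 0.0079, limma adjusted p = 0.00745, DESeq2 adjusted p = 7.49e-09). The edgeR call was lost with the embryo as a block (adjusted p = 0.169) and when any WT primary library or line 4 was left out (adjusted p up to 0.0729). In Prkd3-/- cells the primary clones 13, 14 and 15 held 0.254, 0.61 and 0.393 CPM. Line 13 held 0 counts, line 13a 1.56 CPM, line 14 0.0625 CPM and line 15 0.0944 CPM. Line 13a was thus above every primary library and the other lines were below them (log2 fold change 0.04 ± 1.43, edgeR adjusted p = 0.998, and −2.92 without line 13a).

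The other genes of the estrogen receptor target list were split in direction. Of 14 genes, Pgr included, 13 were tested, 6 with a positive and 7 with a negative log2 fold change in WT, with 1 call in WT (Pgr) and none in Prkd3-/-, and median log2 fold changes of −0.05 and 0.10. Greb1, an estrogen-induced cofactor of the receptor, was at 0.705, 0.446 and 0.59 CPM in WT primary and 0.145, 0.102 and 0.198 CPM in WT lines. Its groups did not overlap, and its log2 fold change of −1.95 ± 0.37 was under an adjusted p of 0.05 in edgeR (0.0401) but did not pass the threshold. In Prkd3-/- line 13, where Esr1 was at its highest, Greb1 was at 5.27 CPM against 0.216 to 0.644 CPM in the other 3 lines, and the epithelial markers summed to 130 CPM there. Stc2, a secreted glycoprotein named here after its values were seen, was at 57.2 CPM in line 13 against 0.0782 to 3.74 CPM in the other 3 lines. Pgr was at 0 counts in the same line. Igfbp4, an IGF-binding protein, ranged from 35.2 CPM in line 15 to 1131 CPM in line 14, and the chemokine Cxcl12 from 52.0 CPM in WT line 3 to 3600 CPM in WT line 5. Esr2, the second estrogen receptor, was at 1.20 to 1.46 CPM in WT primary and 0.137 to 1.176 CPM in WT lines, and at 0.823 to 2.13 CPM in Prkd3-/- primary and 0.0954 to 0.822 CPM in Prkd3-/- lines, below the primary libraries in both genotypes, in Prkd3-/- by the smallest of margins (0.8228 against 0.822 CPM), without passing (log2 fold change over both −1.50 ± 0.50, edgeR adjusted p = 0.137).

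Vdr lies on chromosome 15 from 97854425 to 97910630 on the minus strand. It was at 4.66, 4.80 and 3.52 CPM in WT primary clones 3, 4 and 5 and at 6.59, 17.6 and 23.8 CPM in the WT lines, 1.41-fold, 3.67-fold and 6.76-fold above their own primary cultures. The WT groups did not overlap (log2 fold change 1.89 ± 0.48, edgeR adjusted p = 0.0971, DESeq2 adjusted p = 0.00131), and without WT line 3 the edgeR adjusted p was 0.0061. In Prkd3-/- primary clones 13, 14 and 15 it was at 5.27, 7.65 and 5.98 CPM. Line 13 was at 0.954 CPM, line 13a at 10.7 CPM, line 14 at 82.3 CPM and line 15 at 8.13 CPM, an 86.2-fold range between the lowest and highest line. In all, 3 of these lines were above all primary libraries and line 13 was below them (log2 fold change 2.02 ± 1.26, edgeR adjusted p = 0.837, and 0.06 without line 14).

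Most listed genes of the vitamin D pathway were too low to test. Of 13 listed target genes only 5 had enough counts to be tested in either genotype, and none was called (median log2 fold changes 0.94 in WT and 0.13 in Prkd3-/-). Cyp24a1, the enzyme that degrades the active hormone and the classical target of the receptor, held between 0 and 5 counts in every library (at most 0.0762 CPM), including 1 count in line 14, where Vdr was highest. Cyp27b1, which makes the active hormone, was between 0.0358 and 0.567 CPM, and Spp1 (osteopontin) ranged from 72.3 CPM in line 14 to 3947 CPM in line 13. Rxra and Rxrb, the retinoid X receptors that pair with Vdr, ranged from 64.9 to 174 CPM and from 33.2 to 47.6 CPM with log2 fold changes of 0.08 and −0.05 in WT and 0.02 and 0.21 in Prkd3-/-. Lrp2, an uptake receptor for vitamin D bound to its carrier, was called lower in WT: primary clones held 2.44, 2.77 and 3.54 CPM and the lines 0.693, 0.491 and 0.457 CPM (log2 fold change −2.41 ± 0.27, edgeR adjusted p = 0.0078, limma adjusted p = 0.0948, and 0.0856 with the embryo as a block). The call was kept only without line 3, of the 6 WT libraries left out in turn (adjusted p 0.00701 to 0.0543). In Prkd3-/- libraries Lrp2 overlapped between states, at 4.003 to 12.4 CPM in primary and 1.46 to 9.86 CPM in lines. It was the only call among the 16 tested genes of hormone metabolism in WT.

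**Figure D3:**
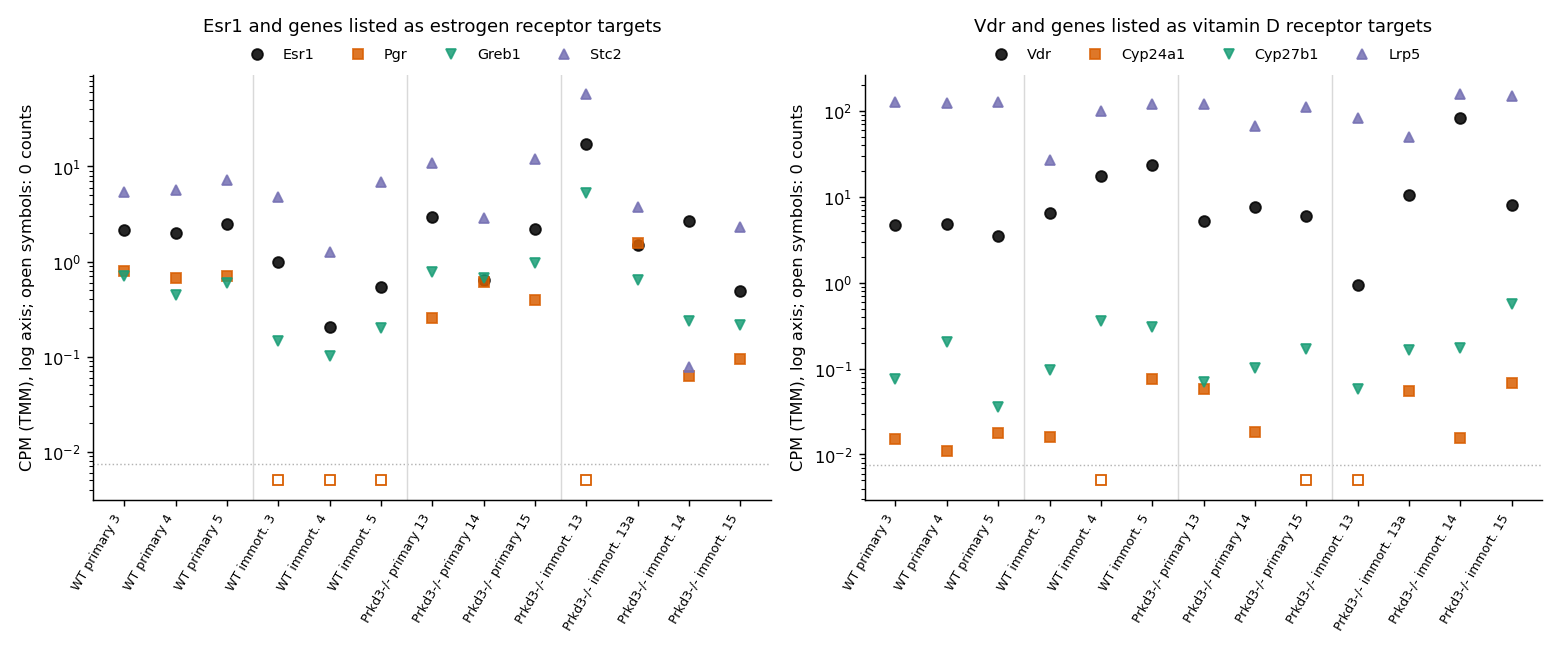
CPM (TMM, log axis) of Esr1 with 3 genes of the estrogen target list, left, and of Vdr with 3 genes of the vitamin D target list, right, in each library, with open symbols for 0 counts. In Prkd3-/- line 13 Esr1, Greb1 and Stc2 are all at their highest while Pgr has 0 counts, and Cyp24a1 stays at or below 0.0762 CPM also where Vdr reaches 82.3 CPM.

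Nr2f1 lies on chromosome 13 from 78188973 to 78199757 on the minus strand. It shared 2.42% of its exon bases with the antisense gene A830082K12Rik, and the counting did not use strand. It was at 15.7, 14.8 and 14.2 CPM in WT primary clones 3, 4 and 5 and at 44.0, 24.9 and 54.4 CPM in the WT lines, with no overlap. Each WT line was above its own primary culture, by 2.80-fold, 1.68-fold and 3.84-fold. The log2 fold change of 1.47 ± 0.29 had an edgeR adjusted p of 0.0479, which missed the threshold of 0.01, while DESeq2 called it (adjusted p = 0.000115). Without WT line 4 the edgeR adjusted p was 0.0051. In Prkd3-/- cells the primary clones 13, 14 and 15 held 22.1, 42.6 and 20.3 CPM and lines 13, 13a, 14 and 15 held 29.95, 43.1, 69.0 and 32.9 CPM. The groups overlapped because primary clone 14 lay above lines 13 and 15, although each line was above its own primary culture by 1.36-fold to 1.95-fold (log2 fold change 0.62 ± 0.40, edgeR adjusted p = 0.843).

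Nr2f2 lies on chromosome 7 from 70351944 to 70366735 on the minus strand, and 7.46% of its exon bases were shared with B130024G19Rik on the other strand. Its level was 74.8, 69.1 and 75.7 CPM in WT primary clones 3, 4 and 5 and 226, 90.7 and 84.6 CPM in the WT lines. The groups did not overlap, but line 3 stood far above lines 4 and 5, and without it the log2 fold change of 0.87 ± 0.40 (edgeR adjusted p = 0.309) was 0.26. In Prkd3-/- primary clones 13, 14 and 15 it was 78.7, 53.6 and 76.3 CPM, and in lines 13, 13a, 14 and 15 it was 137, 137, 60.6 and 152 CPM. Line 14 lay among the primary libraries and the other lines above them (log2 fold change 0.80 ± 0.33, edgeR adjusted p = 0.749). Clone 14 was the lowest of its genotype for Nr2f2 and the highest for Nr2f1 in both states.

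Counted clone by clone, Nr3c1, Nr2f1 and Nr2f2 were each above the primary library of the same clone in 7 of 7 lines, a pattern that 3% of the 21197 tested genes shared. Vdr was above in 6 of 7 lines, Nrip1 in 4, Esr1 in 2 and Pgr in 1. Lines 13 and 13a share a primary library, so these are not 7 separate pairs, and the pairing rests on the clone numbers alone. Fitted over both genotypes, the state effect was 1.01 ± 0.28 for Nr2f1 (edgeR adjusted p = 0.0809) and 0.84 ± 0.26 for Nr2f2 (edgeR adjusted p = 0.118) on the log2 scale, and no gene of the 7 was called, where 0.698% of all tested genes were (148 genes, or 18 with the embryo as a block) and 3.27% by DESeq2. Among 17 genes with a described link to COUP-TF proteins, 13 were tested in WT and none was called, with a median log2 fold change of −0.61. Jag1, Notch1 and Bmp2 had edgeR adjusted p-values under 0.05 there, all lower, and were named after this was seen. Jag1, a Notch ligand that COUP-TFII is known to restrain in veins, was at 71.7 to 75.5 CPM in WT primary and 37.9 to 48.4 CPM in WT lines, but at 8.67 to 94.1 CPM in Prkd3-/- lines around a primary range of 47.1 to 56.4 CPM. Bmp2, a bone morphogenetic protein, was at 5.04 to 8.24 CPM in WT primary and 0 to 0.186 CPM in WT lines, but at 1.26 to 6.43 CPM in Prkd3-/- primary and 0.469 to 5.71 CPM in Prkd3-/- lines. Notch1, the receptor for Jag1, was at 89.7 to 98.3 CPM in WT primary and 43.3 to 59.4 CPM in WT lines, but overlapped between states in Prkd3-/-. In Prkd3-/- none of the 14 tested genes of this list was called, and their median was −0.06. Nr2f6, a further member of the family, ranged from 70.7 to 106 CPM over all libraries, with 54.4% of its exon bases shared with Ocel1. Zfpm2, a zinc finger partner of GATA factors that also binds COUP-TFII, was at 13.9 to 27.9 CPM in WT lines around a primary range of 21.2 to 21.7 CPM, and at 29.1 to 50.7 CPM in Prkd3-/- lines against 26.5 to 28.6 CPM in Prkd3-/- primary (log2 fold changes −0.08 and 0.43).

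Nrip1 lies on chromosome 16 from 76287400 to 76373827 on the minus strand. It was at 36.4, 40.5 and 39.2 CPM in WT primary clones 3, 4 and 5 and at 54.4, 74.0 and 107 CPM in the WT lines. All WT lines lay above all WT primary libraries (log2 fold change 1.03 ± 0.25, edgeR adjusted p = 0.0898, limma adjusted p = 0.04, DESeq2 adjusted p = 0.00614). In Prkd3-/- primary clones 13, 14 and 15 it was at 41.4, 30.95 and 45.6 CPM, and lines 13, 13a, 14 and 15 held 35.8, 34.9, 34.1 and 30.6 CPM. Here 3 of the 4 lines were below their own primary culture and the groups overlapped (log2 fold change −0.23 ± 0.19, edgeR adjusted p = 0.857). The interaction of state and genotype was −1.24 ± 0.31 on the log2 scale (Prkd3-/- minus WT) with an edgeR adjusted p of 1 and a DESeq2 adjusted p of 0.141. The state effect of Nrip1 was therefore not shown to differ between genotypes.

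**Figure D4:**
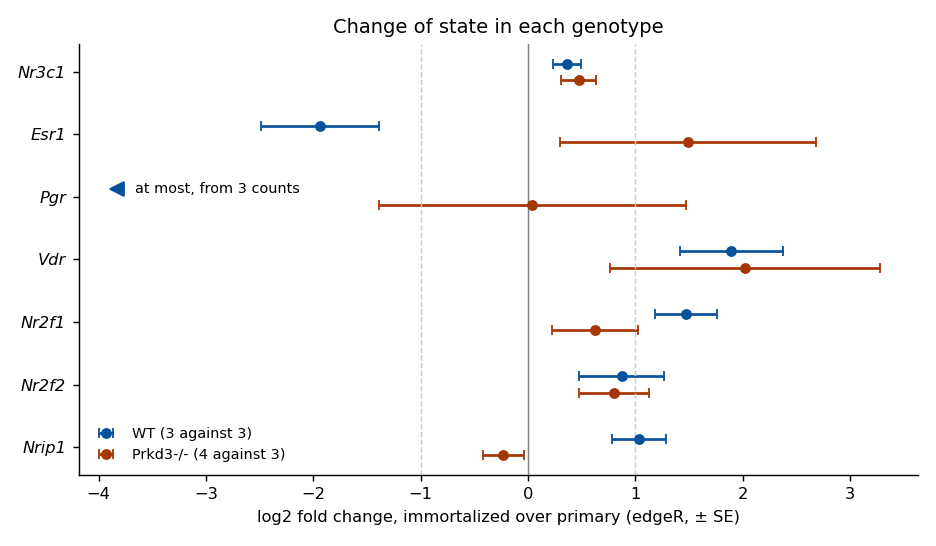
Log2 fold change of immortalized over primary libraries (edgeR, ± SE) for the 7 genes in WT (blue) and Prkd3-/- (brown), with dashed lines at 1 and −1 and a triangle for the bound on Pgr in WT. Values are positive in both genotypes for Nr3c1, Vdr, Nr2f1 and Nr2f2, while Esr1 and Nrip1 lie on opposite sides of 0, a difference that did not pass the interaction test.

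No interaction was called among the 7 genes or among all 21197 tested (0%), with 841 genes (3.97%) at an unadjusted p under 0.05 in edgeR, 3 of them (Nrip1, Pgr and Esr1) among the 7. DESeq2 made 37 calls (0.123%), 0 of them among the 7. For Esr1 the interaction was 3.46 ± 1.51 on the log2 scale and for Vdr 0.13 ± 1.46, and every one of the 7 genes had an edgeR adjusted p of 1. For Pgr the fitted value depends on the prior count, since the WT lines had no counts.

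The 7 genes differed in how far their levels spread within a state. Among WT primary libraries the highest level was 1.05 times the lowest for Nr3c1 and at most 1.36 times for the others, which was the value for Vdr. Among WT lines this ratio was 1.33 for Nr3c1, 1.97 for Nrip1, 2.18 for Nr2f1, 2.67 for Nr2f2, 3.61 for Vdr and 4.84 for Esr1. Among Prkd3-/- lines it was 1.17 for Nrip1, 1.25 for Nr3c1, 2.31 for Nr2f1, 2.52 for Nr2f2, 35.8 for Esr1 and 86.2 for Vdr. Lines 13 and 13a, which share a clone number, agreed within 1.09-fold for Nr3c1, Nr2f2 and Nrip1 but were 11.5-fold apart for Esr1, with line 13 higher, and 11.2-fold apart for Vdr, with line 13a higher. Pgr had 0 counts in line 13 and its highest level of all libraries in line 13a.

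Coregulators of these receptors were centred near no difference. Among 21 coregulators, all tested, 1 was called in WT and none in Prkd3-/-, and their median log2 fold changes were 0.04 and 0.17. The call was Bcl11a, a zinc finger repressor that binds COUP-TF proteins, at 4.32, 4.59 and 5.54 CPM in WT primary and 0 counts in all 3 WT lines, at least 94.9-fold lower (edgeR adjusted p = 0.00253, and 0.086 with the embryo as a block). In Prkd3-/- Bcl11a was at 3.74 to 11.9 CPM in primary and 0.188 to 3.40 CPM in lines, also without overlap (edgeR adjusted p = 0.702). For Bcl11a, DESeq2 called the interaction of state and genotype (DESeq2 adjusted p = 0.00134), whereas edgeR did not. Without any 1 of the 3 WT primary libraries its WT call was lost, with an adjusted p of up to 0.0335. The corepressors Ncor1 (111 to 218 CPM), Ctbp1 (156 to 287 CPM) and Ctbp2 (23.0 to 105 CPM) and the coactivator Ncoa1 (17.98 to 45.6 CPM) had log2 fold changes between −0.23 and 0.20 in both genotypes. Of 11 receptor chaperones 10 had a positive log2 fold change in each genotype (medians 0.15 and 0.29) and none was called. Hsp90ab1 ranged from 1470 to 3667 CPM and the immunophilin Fkbp4 from 83.0 to 341 CPM.

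The rest of the nuclear receptor family showed no call in any comparison. Of 41 other receptors 28 were tested in each genotype, with median log2 fold changes of 0.14 in WT and 0.10 in Prkd3-/-. In 6 every WT line was above every WT primary library and in 7 below, where 13.9% of all tested genes lay above and 17.4% below. Ppara and Nr1d2, named after their values were seen, had edgeR adjusted p-values under 0.05 in WT. Ppara, which governs fatty acid oxidation, was at 0.642 to 0.767 CPM in WT primary and 0.0677 to 0.168 CPM in WT lines, but in Prkd3-/- at 0.231 to 0.265 CPM in primary and 0 to 1.39 CPM in lines. Nr1d2, a clock repressor, was at 34.9 to 39.7 CPM in WT primary and 60.9 to 66.1 CPM in WT lines. Nr3c2, the mineralocorticoid receptor and the closest relative of Nr3c1, was at 1.81 to 2.56 CPM in WT primary and 0.0806 to 1.24 CPM in WT lines (log2 fold change −1.62 ± 0.82, edgeR adjusted p = 0.352). In Prkd3-/- line 14 Nr3c2 reached 8.11 CPM, against 0.533 to 0.703 CPM in the primary libraries.

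Markers of some other cell types differed with state beside these results. In WT all 10 macrophage markers had a negative log2 fold change (median −4.13), 7 were called lower and 9 had every line below every primary library. In Prkd3-/- all 10 were negative (median −3.33), but 0 were called and only 1 had every line below every primary library. The summed level of 7 endothelial markers was 12.3 to 16.8 CPM in WT primary and 0.677 to 2.09 CPM in WT lines, and 15.3 to 29.5 CPM in Prkd3-/- primary and 1.72 to 17.7 CPM in Prkd3-/- lines; 1 of them, Tek, was called lower in WT and Tie1 was at 0 counts in WT primary and in Prkd3-/- lines. The 7 epithelial markers summed to 10.7 to 15.3 CPM in WT primary and 0.779 to 37.9 CPM in WT lines, and the 6 muscle markers to 22.5 to 25.9 and 0.728 to 7.09 CPM. In Prkd3-/- the epithelial sums were 8.32 to 61.8 CPM in primary and 2.28 to 130 CPM in lines, and the muscle sums 4.37 to 27.3 and 0.115 to 0.922 CPM. Among Prkd3-/- primary libraries, clone 14 had the highest macrophage sum (1028 CPM, against 93.1 CPM in clone 13 and 224 CPM in clone 15). It was highest also for the muscle sum (27.3 CPM), Nr2f1 (42.6 CPM), Pgr (0.61 CPM) and Vdr (7.65 CPM). It was lowest for the fibroblast sum (23780 CPM), Esr1 (0.638 CPM), Nr2f2 (53.6 CPM) and Nrip1 (30.95 CPM). WT primary libraries, with macrophage sums of 682 to 711 CPM, had Nr2f1 at 14.2 to 15.7 CPM. Among the Prkd3-/- lines, 13a had the highest macrophage sum (177 CPM, against 10.2 to 17.9 CPM in the others) and the highest Pgr (1.56 CPM). Line 13, the highest for Esr1, Greb1 and Stc2, had the highest epithelial sum (130 CPM, against 2.28 to 17.1 CPM in the other 3 lines) and the lowest fibroblast sum (18550 CPM, against 24380 to 30530 CPM). The part of these cell types in the levels of the 7 genes was not tested, and in bulk libraries fewer cells of a type cannot be told apart from less RNA per cell.

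By Pearson correlation of log2 CPM over the 13 libraries, the 2 protein-coding genes closest to each of the 7 among 14260 were searched as a description. For Esr1 they were N4bp3 and Prpf4 (both r = 0.95), for Pgr Rnf183 (0.97) and Tfpi2 (0.96), and for Vdr Bloc1s1 and Rdh5 (both 0.96). Rdh5 shared 25.6% of its exon bases with Bloc1s1, so these counts overlap, and Rnf183 was at 0.247 CPM or less. For Nr3c1 they were Zfp971 and Zfp873 (both 0.90), for Nr2f1 Lhx6 (0.90) and Dscam (0.89), for Nr2f2 Clasp1 (0.91) and Vps37c (0.90), and for Nrip1 Hipk3 (0.91) and Nfe2l1 (0.90). The 13 libraries share states, clones and tables, and ranks by Spearman's rho kept 2 of the 14 genes among the closest, Rnf183 for Pgr (0.97) and Lhx6 for Nr2f1 (0.92).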

How the data were processed

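Per the file headers and the study's methods, the authors mapped 6 WT libraries to mm10 with STAR 2.7.10a, processed alignments with SAMtools 1.18 and deposited whole-number counts per Ensembl GRCm38 release 102 gene from featureCounts (Subread 2.0.6), unstranded, with a read pair given to every gene it overlapped. The second table, of 7 libraries labelled Prkd3-/-, lists the same gene models; its steps are not given in the sources used here beyond the same tools in the submitters' processing notes. Both tables were used as deposited (55487 genes, 55141 with a symbol, and no mitochondrial counts).

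Each genotype was fitted alone, and both together, with edgeR 4.0.16 (quasi-likelihood, TMM, its filter on low counts, robust) in R 4.3.3, with Benjamini-Hochberg adjustment over all tested genes. A call needed an adjusted p under 0.01 and an absolute log2 fold change of at least 1, and for the interaction an adjusted p under 0.05. The SE is the log2 fold change over the square root of F. Floors of 3 counts cover counting error only. DESeq2 1.42.0 and limma 3.58.1 were alternatives, with other scalings, filters, a block and each library left out. The fits were tested on simulated counts.

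The 7 genes and all lists were chosen with earlier results of these data known. Genes named besides these 7 are 23 fixed by name (1 is not reported here), up to 5 called genes per list and the 2 genes of most like pattern, and any other is said to have been named after its values were seen.

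The study states that a WT number marks an embryo, and Prkd3-/- clone numbers were read likewise. The pairing of primary libraries with lines rests on these numbers. The correlation of their deviations was between −0.0393 and 0.0186 in WT and between −0.283 and 0.142 in Prkd3-/-. Only WT line 4 and Prkd3-/- line 15 correlated best with the primary library of their own clone. Line 13 reached 0.305 and line 13a 0.337 with the primary library of another clone. The correlations thus do not show the pairing.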

Additional observations from a re-analysis of the deposited data

Results flagged for a closer look

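In the group of 4 Prkd3-/- lines, a single line stood apart from the others in 7 of the 31 genes tested. Dixon's test (the line's gap to the nearest line over the range of the 4) was used on CPM, not on a log scale. Its chance rate of about 1 in 20 holds for normally distributed values, which CPM need not be. No excess over chance is therefore shown. The groups of 3 were not tested. Line 13 stood apart for Esr1 (17.4 CPM, the next line at 2.69 CPM) and for Greb1 (5.27 CPM, next 0.644 CPM). Line 13a stood apart for Pgr (1.56 CPM, next 0.0944 CPM) and for Hsd11b1 (3.47 CPM, next 0.364 CPM). Line 14 stood apart as high for Vdr (82.3 CPM, next 10.7 CPM) and Nr3c2 (8.11 CPM, next 1.15 CPM) and as low for Nr2f2 (60.6 CPM, next 137 CPM).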

How the results depend on the processing

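Precision was limited by few lines that differed among themselves: beyond counting noise, lines of a group differed by a CV of 44.3% to 52.3% in WT and 46.9% to 75.6% in Prkd3-/-, against 4.09% to 6.7% and 15.1% to 41.5% for primary libraries. Labels do not say whether libraries are separate cultures beyond their clone number. Each WT primary library held both Xist and Ddx3y, so their small spread may not be one between single embryos. Alternatives moved counts of calls by over 1.5 times in WT, where 361 genes and 1 of the 7 genes described here were called. DESeq2 called 1361 genes and 5 of the 7, limma with a weight per group 198 genes, and a filter of at least 10 counts in every library 157 genes and 0 of the 7, since Pgr was then not tested. With the embryo as a block, and with all 13 libraries in 1 fit, 0 genes and 0 of the 7 were called. At an adjusted p under 0.05 there were 868 genes and 2 of the 7. Leaving out 1 library gave 48 genes (without primary clone 3) to 743 genes (without line 5) and 0 to 2 of the 7: Vdr was called without line 3 (log2 fold change 2.26) and Nr2f1 without line 4 (1.73). In Prkd3-/- (0 genes), DESeq2 called 190 and 1 fit of all libraries 1. Over both genotypes (148), DESeq2 called 859, limma 338, the filter of 10 counts 7, the block 18, an adjusted p under 0.05 543, and leaving out 1 library 31 (without WT primary clone 4) to 408 (without line 13a). The interaction (0) gave 37 by DESeq2 and 0 to 2 when 1 library was left out. The cause of these differences was not tested. The block changed no other call of the 7.

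No log2 fold change of the 7 turned sign in WT under 104 alternatives, of which 92 kept their side of the threshold. In Prkd3-/- 6 of 118 turned, over both genotypes 5 of 153 and in the interaction 9 of 153. State and interaction values of the other named genes were refitted but not counted here. With the embryo as a block some turned sign, such as the state effects of Fkbp5 (0.05 to −0.22) and Nr3c2 (0.23 to −0.79). The interaction of Spp1 turned from 0.21 to −2.06. Others kept their sign, such as the state effect of Greb1 (−0.35 and −1.34). Group means of CPM moved by less than 1 SD on library size alone and with lines 13 and 13a summed (35 of 35).

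Values that turned sign were mostly near 0, and for each the cause was not tested. With library size alone, the WT log2 fold change was −0.06 for Rxra, −0.01 for Ncor1 and −0.06 for Ncoa1, and the interaction of Nr2f2 was 0.08. With limma, it was −0.01 for Ncoa1 in WT, and in Prkd3-/- −1.89 for Pgr, −0.13 for Fkbp5, −0.35 for Greb1, −0.66 for Igfbp4 and −0.04 for Rxra, with interactions of −1.08 for Vdr and 0.03 for Nr2f2. With the embryo as a block it was −0.01 for Ncoa1 in WT, and in Prkd3-/- −1.17 for Pgr, −0.29 for Fkbp5, −0.59 for Greb1, −0.99 for Igfbp4 and −0.05 for Rxra, with an interaction of −0.64 for Vdr. With lines 13 and 13a summed it was −0.26 for Pgr and −0.13 for Fkbp5.

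Leaving out 1 WT library gave −0.54 to 0.21 for Igfbp4, −0.03 to 0.19 for Rxra, −0.88 to 1.91 for Hsd11b1, −0.17 to 0.06 for Ctbp1, −0.37 to 0.14 for Zfpm2 and −0.27 to 0.33 for Ncoa1. Leaving out 1 Prkd3-/- library gave −0.30 to 1.94 for Esr1, −2.92 to 0.45 for Pgr, −0.34 to 0.52 for Fkbp5, −1.13 to 1.32 for Greb1, −1.20 to 0.54 for Igfbp4, −0.36 to 0.24 for Rxra, −0.09 to 0.18 for Ncor1, −0.74 to 0.02 for Ctbp2 and −0.25 to 2.35 for Nr3c2. Over both genotypes Esr1 ranged from −1.11 to 0.34, and the interaction from −1.82 to 0.54 for Vdr and −0.34 to 0.52 for Nr2f2. By Spearman's rho in place of Pearson's r, 12 of the 14 genes of like pattern were no longer among the nearest 2.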
